A study of Mus musculus with 16 samples.

Results

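Assays for the interleukin 1 family were read in RNA from mouse colonic mucosa. The set took every assay named Il1b, Il18, Il1rl1, Il1f9 or Il1f10, together with Il1a, Il1rn and any other name beginning with Il1f. It comprised 9 genes on 10 assays, out of 584 genes on 648 assays of the TaqMan OpenArray Mouse Inflammation Panel, a real-time PCR card on which each assay has its own well. The members were Il1a, Il1b, Il1f5, Il1f6, Il1f9, Il1f10, Il1rn, Il18 and Il1rl1. Only Il1b had more than 1 assay.

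The 16 samples formed 4 groups of 4. DNBS_CEC mice were given DNBS (dinitrobenzene sulfonic acid), which inflames the colon as a hapten, into the rectum, and an oral treatment that the labels abbreviate as CEC without explaining it. DNBS_Nissle mice received intrarectal DNBS and oral Nissle, taken here as the probiotic Escherichia coli strain of that name. DNBS mice received intrarectal DNBS and oral buffer (PBS), and healthy mice received PBS by both routes. The labels give no strain, sex, age, dose or time. The series text says that RNA of the mice was pooled in equal amounts, while each sample carries its own number, so a sample may be 1 mouse or a pool, and the p-values measure only the spread between these samples.

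Interleukin 1 alpha and beta both signal through the receptor encoded by Il1r1 with its partner Il1rap, and the product of Il1rn occupies the same receptor without signalling. Interleukin 1 beta and interleukin 18 are made as precursors that inflammasome caspases cut. In the gut, interleukin 1 beta comes mainly from myeloid cells, whereas interleukin 18 is also made steadily by the epithelium. The genes Il1f6 and Il1f9 encode agonists of the receptor subunit encoded by Il1rl2, Il1f5 encodes its antagonist, and Il1rl1 encodes the receptor for IL-33.

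Of the 9 members, 7 lie on chromosome 2 of the mouse genome (GRCm38.p6), Il18 lies on chromosome 9 and Il1rl1 on chromosome 1, per RefSeq. Il1b spans chr2:129364569-129371164 and Il1a, its neighbour on the same strand, chr2:129299609-129310186. RefSeq promoter entries were matched for 8 of the 9 members. The 250 bases before a RefSeq start site are printed for Il1b, the member with the largest difference from healthy mucosa, and for Il18, whose groups all overlapped. They lie at chr2:129371140-129371389 on the minus strand for Il1b and at chr9:50554450-50554699 on the plus strand for Il18. Capitals mark matches to any of 4 motifs searched on both strands.
Il1b: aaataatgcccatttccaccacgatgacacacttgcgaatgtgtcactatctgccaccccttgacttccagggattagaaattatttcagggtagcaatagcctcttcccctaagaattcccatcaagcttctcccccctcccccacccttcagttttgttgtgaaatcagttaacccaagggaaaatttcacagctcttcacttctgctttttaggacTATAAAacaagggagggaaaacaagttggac
Il18: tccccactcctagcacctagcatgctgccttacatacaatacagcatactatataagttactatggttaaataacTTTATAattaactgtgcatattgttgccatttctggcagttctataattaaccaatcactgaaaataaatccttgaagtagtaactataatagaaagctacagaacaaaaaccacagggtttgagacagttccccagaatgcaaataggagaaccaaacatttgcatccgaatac
The motifs were TATAAA (the TATA box), TGANTCA (AP-1), an NF-kB pattern (GGG and TTCC with 3 bases of any kind between) and TTGCNNAA (C/EBP). TATAAA occurred on the coding strand from base −31 in Il1b and from base −32 in the same window of Il1a (chr2:129309973-129310222, minus strand), where −1 is the last base before the start, and on the opposite strand from base −175 in Il18. Il1a also held TGACTCA from base −12. Of 32851 promoters in the RefSeq table, 12.4% held TATAAA somewhere in the same window, 6.75% held TGANTCA, 4.65% the NF-kB pattern and 9.56% TTGCNNAA. No motif overlapped another in these windows. A match describes letters and is not a measured site.

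The deposited values are raw cycle thresholds (Ct), the PCR cycle at which fluorescence crosses a threshold, with 40 for no amplification. A Ct above 28 was counted as not detected and set to 28. The level of a gene, −ΔCt, is its Ct subtracted from the mean Ct of 13 reference genes, so that 1 unit more is about a doubling of template. Of the reference genes, Ywhaz ran from a Ct of 17.9 to 26.8, with an SD within groups of 3.47. That SD was 1.01 for Rplp2 and 0.27 to 0.57 for the others. Healthy samples had 528 to 539 detected assays and DNBS-treated samples 548 to 564, so every healthy sample had fewer. No count of molecules lies behind a Ct, so no counting interval was computed. Gaps had apparently been filled in for 194 values (1.87%), which equalled the average of the remaining 3 samples in the group within 2e-06 cycles. Healthy sample 3 held 57 and DNBS_Nissle sample 1 held 61, against 1 to 12 in the others. Of the members' values, 5 were of this kind, and each is named where it enters a result. Levels of different genes come from different assays, so levels are compared within a gene only. The sums of cell markers given below are an exception.

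Il1b, a cytokine of myeloid cells, had the largest difference from healthy mucosa of the 4 members that could be tested. Its level was −2.99, −2.59, −4.22 and −5.41 in DNBS_CEC samples 1, 2, 6 and 8, and 0.10, −2.21, 0.90 and −2.46 in DNBS_Nissle samples 1, 4, 5 and 7. It was −2.81, 1.5, −3.08 and −3.45 in DNBS samples 2, 3, 4 and 5, against −6.70, −5.93, −5.63 and −4.44 in healthy samples 3, 4, 5 and 6. Every DNBS_Nissle sample and every DNBS sample lay above all healthy samples, while DNBS_CEC sample 8 lay within the healthy range. DNBS sample 3 stood far above the rest of its group. In RNA of whole mucosa, fewer cells of a type and less RNA per cell cannot be told apart.

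**Figure D1:**
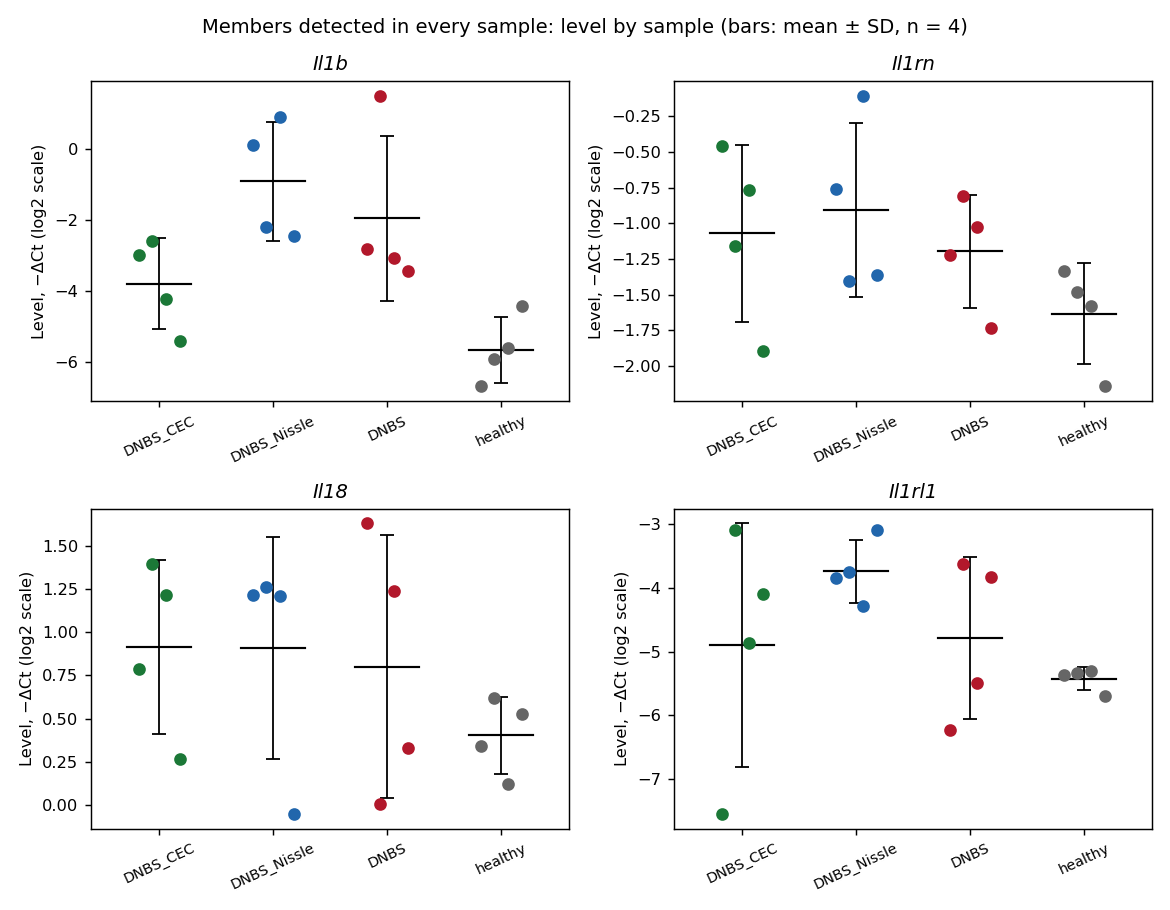
Level (−ΔCt, log2 scale) of the 4 members detected in all 16 samples, with 1 point per sample and the mean ± SD of each group (n = 4). Il1b points of DNBS_Nissle and DNBS all lie above the healthy ones, whereas Il1rn and Il18 overlap between all groups.

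Il1b averaged −3.80 ± 1.27 in DNBS_CEC, −0.92 ± 1.67 in DNBS_Nissle, −1.96 ± 2.32 in DNBS and −5.67 ± 0.94 in healthy mucosa (level ± SD, n = 4 each). It rose in DNBS_Nissle against healthy mucosa, by 4.76 ± 1.02 on the log2 scale (± SE), or 27.1-fold with a 95% confidence interval of 6.02 to 122 (limma, adjusted p = 0.0192). In that comparison 2.19% of the 457 genes tested passed, all of them higher, and Il1b was 1 of 4 members tested. The call was lost without DNBS_Nissle sample 1 (4.42, adjusted p = 0.083) or 5 (4.15, 0.0542) and without healthy sample 3 (4.42, 0.0826) or 4 (4.67, 0.0595). Over all 3 DNBS groups against healthy mucosa Il1b also rose, by 3.45 ± 0.84 or 10.9-fold (limma, adjusted p = 0.0392), where 1.99% of 453 genes passed. That call was lost without DNBS_CEC sample 1 or 2, DNBS_Nissle sample 1 or 5, DNBS sample 4 or any 1 healthy sample, with differences of 3.11 to 3.86 and adjusted p of 0.0529 to 0.21.

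Against healthy mucosa the Il1b level of DNBS mice differed by 3.71 ± 1.03, or 13.1-fold, and did not pass (limma, adjusted p = 0.105). In that comparison 0.219% of 457 genes passed, a single gene, Nos2, and 45 genes had an unadjusted p under 0.05. Without DNBS sample 3 the difference was 2.56, or 5.90-fold. Groups did not overlap in 8.53% of those genes, and among the 4 members tested this held for Il1b alone. In DNBS_CEC against healthy mucosa the Il1b difference was 1.87 ± 1.03, or 3.66-fold, with an interval of 0.81 to 16.5 (adjusted p = 0.904). No gene passed there by limma (0% of 458, with 25 at an unadjusted p under 0.05), and none of the 4 members was free of overlap, against 3.28% of genes.

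The oral treatments were set against each other and against buffer within DNBS mice. In DNBS_CEC the Il1b level differed from that in DNBS_Nissle by −2.89 ± 1.03, 7.40-fold lower. With both Il1b assays averaged, every DNBS_CEC sample lay below every DNBS_Nissle sample, but by either assay alone the groups overlapped. The difference did not pass (limma, adjusted p = 0.92), and no gene did by limma (0% of 471 tested, with 22 at an unadjusted p under 0.05). Groups did not overlap in 1.91% of those genes. In DNBS_CEC against DNBS the Il1b difference was −1.84 ± 1.03, and in DNBS_Nissle against DNBS it was 1.05 ± 1.03, both with overlap. Without DNBS sample 3 these were −0.69 and 2.20. Neither comparison had a gene that passed by limma (0% of 474 in each, with 8 and 7 at an unadjusted p under 0.05), and the 3 comparisons within DNBS mice share samples.

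Both Il1b assays gave alike mean differences. Their Ct values correlated at a Pearson r of 0.948 over 16 samples and lay 0.203 to 1.62 cycles apart. The difference between DNBS_Nissle and healthy mucosa was 4.64 by the Mm01336189_m1 assay and 4.88 by the Mm99999061_mH assay. That between DNBS_CEC and DNBS_Nissle was −2.76 and −3.01. By each assay alone these groups overlapped, in raw Ct as in level. By Mm01336189_m1 the raw Ct was 21.88 in DNBS_Nissle sample 4 and 21.76 in DNBS_CEC sample 1. By Mm99999061_mH it was 21.55 in DNBS_Nissle sample 7 and 21.41 in DNBS_CEC sample 2. The order of groups, DNBS_Nissle over DNBS over DNBS_CEC over healthy, was the order of both assays, and each neighbouring pair in it overlapped.

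**Figure D2:**
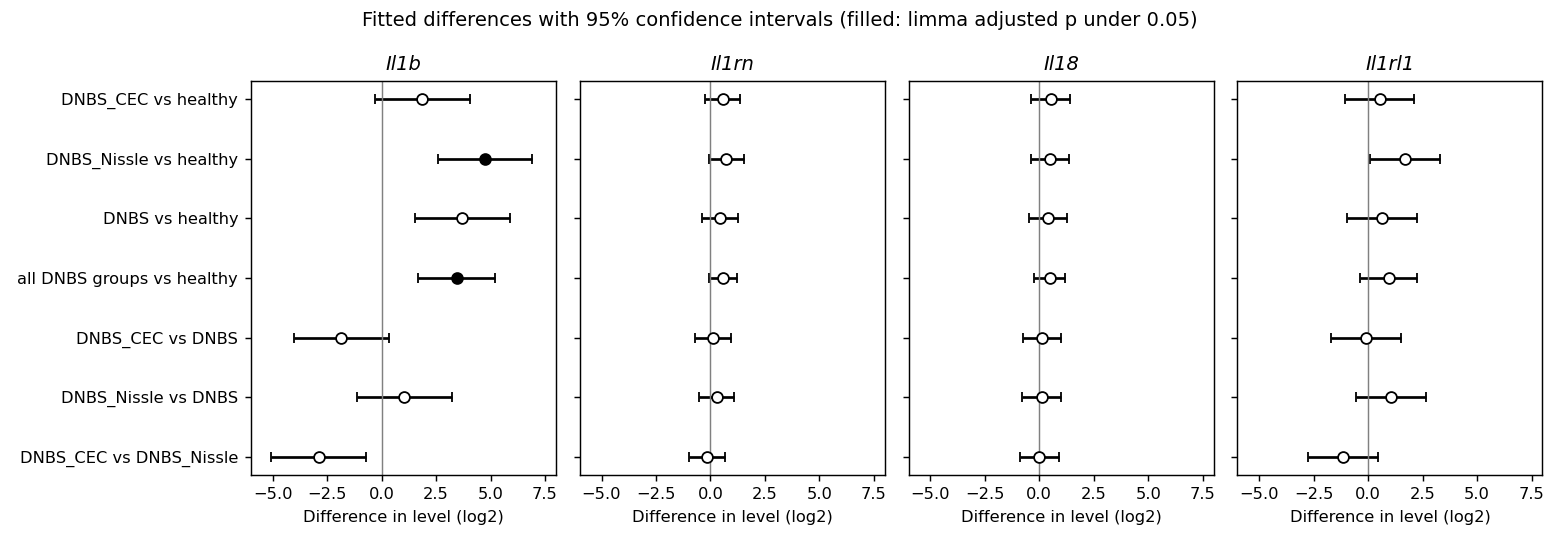
Difference in level (log2) of Il1b, Il1rn, Il18 and Il1rl1 in 7 comparisons, with 95% confidence intervals from limma. Filled points passed at an adjusted p under 0.05, and they are Il1b in DNBS_Nissle against healthy and in all DNBS groups against healthy, at 4.76 and 3.45.

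Il1a, whose product also acts as an alarm signal from damaged cells, ranged widely within each DNBS group. Its level was −5.31, −5.56 and −8.44 in DNBS_CEC samples 1, 2 and 8, with sample 6 not detected, and −1.94, −4.33, −1.06 and −6.82 in DNBS_Nissle samples 1, 4, 5 and 7. It was −7.00, −1.79, −5.94 and −7.80 in DNBS samples 2, 3, 4 and 5. In healthy mucosa it was detected in 2 of 4 samples, at −7.60 in sample 3, a filled value, and −6.81 in sample 6. The highest values were those of DNBS_Nissle samples 1 and 5 and DNBS sample 3, which were also the highest in Il1b.

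Il1a was therefore tested only among DNBS groups. Its level in DNBS_CEC differed from that in DNBS_Nissle by −3.36 ± 1.31 (limma, adjusted p = 0.941), with overlap. In DNBS_CEC against DNBS it differed by −1.27 ± 1.31, and in DNBS_Nissle against DNBS by 2.10 ± 1.31. Without DNBS sample 3 the difference between DNBS_CEC and DNBS was 0.015. The undetected healthy wells had a raw Ct of 28.58 and 28.21, just past the limit. With a limit of 30 Il1a could be compared with healthy mucosa, where the difference was 4.60 ± 1.34 in DNBS_Nissle (limma, adjusted p = 0.0772), 1.19 ± 1.34 in DNBS_CEC (0.914) and 2.50 ± 1.34 in DNBS (0.544).

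Il1f9, the agonist known as IL-36 gamma, was detected in 3 of 4 samples of each DNBS group and in 0 of 4 healthy samples. Its raw Ct was 26.33, 26.0, 27.57 and 30.99 in DNBS_CEC samples 1, 2, 6 and 8, and 23.34, 28.5, 24.56 and 25.07 in DNBS_Nissle samples 1, 4, 5 and 7. In DNBS samples 2, 3, 4 and 5 it was 25.89, 23.29, 29.67 and 26.11. Healthy samples 3 and 5 did not amplify, and samples 4 and 6 had a raw Ct of 30.07 and 29.97. Since each DNBS group also held an undetected well, no fold is given against healthy mucosa. Fisher's exact test gave a two-sided p of 0.143 for each (adjusted p = 1), where the smallest that 4 against 4 allows is 0.0286. A detection difference, at least 3 samples of a group against at most 1 of the other, occurred in 2.34% of 513 genes for DNBS_CEC, 3.88% of 516 for DNBS_Nissle and 2.53% of 514 for DNBS. If any Ct under 40 counted, Il1f9 was detected in 4 of 4 samples of each DNBS group and 2 of 4 healthy ones.

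Among DNBS mice Il1f9 followed the order of Il1b, with −1.50 ± 0.92 in DNBS_CEC against DNBS_Nissle, −1.21 ± 0.92 in DNBS_CEC against DNBS and 0.29 ± 0.92 in DNBS_Nissle against DNBS (difference in level, log2). All 3 had overlap, and none passed by limma (adjusted p = 0.974, 0.992 and 0.988). The last turned to −0.27 without DNBS sample 4, −0.31 without DNBS_Nissle sample 1 and −0.17 without DNBS_Nissle sample 5.

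Il1f10, which encodes IL-38, showed another pattern. Its raw Ct was 24.32, 24.83, 26.34 and 25.16 in DNBS_CEC samples 1, 2, 6 and 8, of which the last is a filled value. In DNBS_Nissle only sample 5 amplified, at 23.49. DNBS samples 3, 4 and 5 amplified, at 24.75, 23.75 and 24.9, while the 24.47 of sample 2 is a filled value. Healthy samples 3 and 6 amplified at 22.81 and 24.57. Each measured well thus either amplified before cycle 27 or read 40, with nothing between, and a failed well cannot be told apart from one without template.

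Among measured wells, Il1f10 was detected in 1 of 4 in DNBS_Nissle, against 3 of 3 in DNBS and 3 of 3 in DNBS_CEC. If the wells at 40 lacked template, DNBS_Nissle was at least 6.14-fold lower than DNBS with undetected wells at the limit. DNBS_CEC was then at least 4.12-fold higher than DNBS_Nissle. If those wells failed, neither fold holds. The DNBS_Nissle well that amplified, at a level of −3.73, lay above all DNBS samples, at −5.90 to −3.90. With the filled values counted as detected, 4 of 4 against 1 of 4, both comparisons had a Fisher's exact p of 0.143 (adjusted p = 1). Detection differences of this kind occurred in 1.36% of 515 genes between DNBS_Nissle and DNBS and in 1.93% of 518 between DNBS_CEC and DNBS_Nissle. In DNBS_CEC against DNBS, where it could be tested, the difference was −0.76 ± 1.30 with the filled values included (limma, adjusted p = 0.992).

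Il1f6, the related agonist IL-36 alpha, never came under the limit of 28. It amplified late in 9 of the 11 measured wells of DNBS-treated mice and in 0 of 4 of healthy mice, and the remaining DNBS-treated value was filled. The raw Ct was 29.09, 29.26, 30.58 and 29.02 in DNBS_CEC, 29.42 and 30.74 in DNBS_Nissle samples 4 and 7, and 29.28, 29.59, 29.91 (a filled value) and 30.85 in DNBS. DNBS_Nissle samples 1 and 5 and all healthy samples read 40. Il1f5, the antagonist of this branch, read 40 in all 12 DNBS-treated samples and in 3 healthy ones, with a Ct of 17.96 in healthy sample 3 alone.

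**Figure D3:**
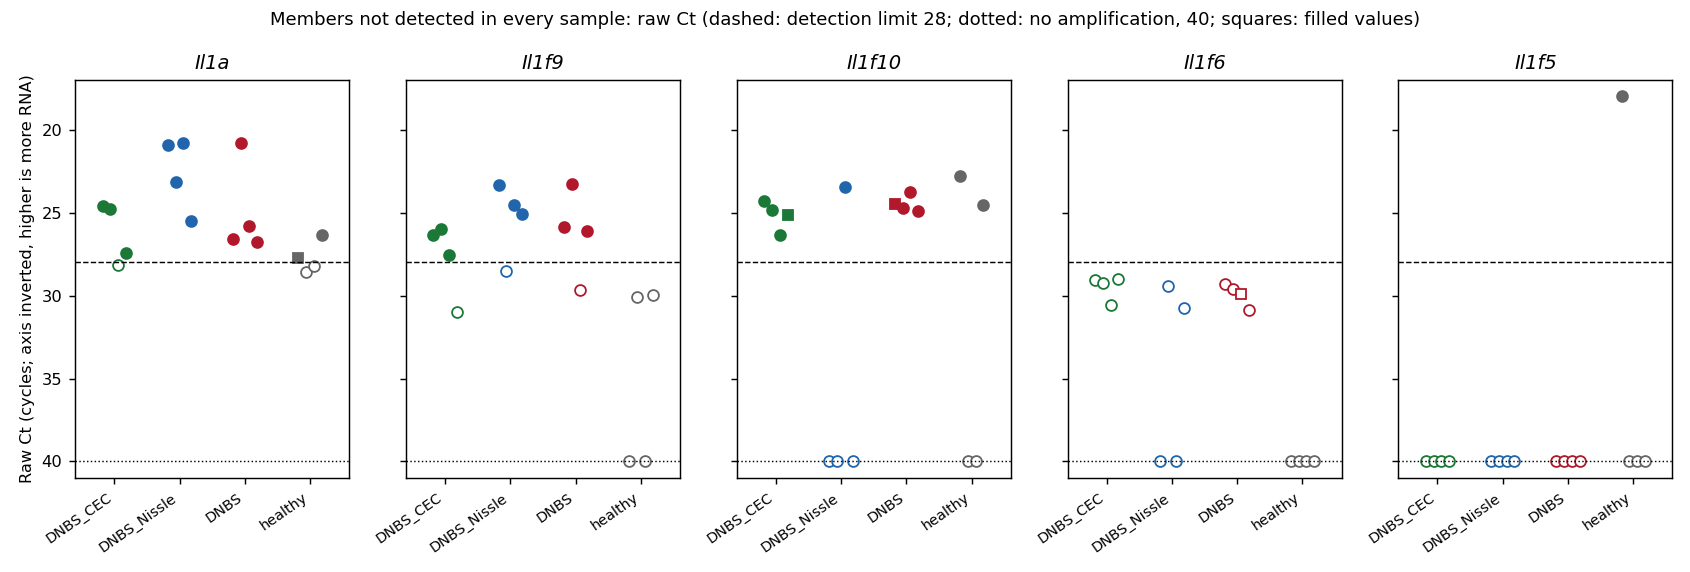
Raw Ct (cycles, axis inverted so that higher means more RNA) of the 5 members not detected in every sample, with 1 point per sample. Filled symbols were detected at a Ct of 28 or less (dashed line), the dotted line at 40 is no amplification, and squares are filled-in values. Il1f9 lay under the limit in 9 of 12 DNBS-treated samples and 0 of 4 healthy ones.

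Il1rn, the receptor antagonist, was detected in all samples. Its level was −0.46, −1.16, −0.77 and −1.90 in DNBS_CEC, −0.76, −1.41, −0.11 and −1.36 in DNBS_Nissle, and −1.23, −0.81, −1.03 and −1.73 in DNBS, against −1.33, −1.48, −1.58 and −2.14 in healthy mucosa. All groups overlapped. Against healthy mucosa the difference was 0.56 ± 0.38 in DNBS_CEC (limma, adjusted p = 0.904), 0.73 ± 0.38 in DNBS_Nissle (0.341) and 0.44 ± 0.38 in DNBS (0.847), and the 95% interval over all DNBS groups was −0.09 to 1.24. Among DNBS groups its differences lay between −0.16 and 0.29.

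Il18, the epithelial and myeloid member, overlapped between all groups. Its level was 0.79, 1.40, 1.22 and 0.26 in DNBS_CEC, 1.22, 1.26, 1.21 and −0.05 in DNBS_Nissle, and 1.63, 0.00, 1.24 and 0.33 in DNBS, against 0.34, 0.62, 0.12 and 0.53 in healthy mucosa. DNBS_CEC sample 8 and DNBS sample 5 lay within the healthy range. No DNBS_Nissle sample did, since samples 1, 4 and 5 lay above it and sample 7 below it. The difference from healthy mucosa was 0.51 ± 0.41 in DNBS_CEC, 0.51 ± 0.41 in DNBS_Nissle and 0.40 ± 0.41 in DNBS (limma, adjusted p = 0.904, 0.569 and 0.854). Over all DNBS groups its 95% interval was −0.24 to 1.19, or 0.85-fold to 2.28-fold. Among DNBS groups its differences were 0.01 to 0.11, each with an SE of 0.41.

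Il1rl1, the IL-33 receptor, had a level of −7.55, −3.09, −4.87 and −4.09 in DNBS_CEC, and of −3.85 (a filled value), −3.75, −4.28 and −3.09 in DNBS_Nissle. It was −6.23, −3.62, −5.49 and −3.82 in DNBS, against −5.36, −5.34, −5.30 and −5.70 in healthy mucosa. Every DNBS_Nissle sample lay above all healthy samples, while DNBS_CEC and DNBS spread to both sides of them. In DNBS_Nissle against healthy mucosa the difference was 1.68 ± 0.75, 3.21-fold, and did not pass (limma, adjusted p = 0.277). With only those groups in the fit, which leaves out the wide spread of DNBS_CEC and DNBS, the same difference had an SE of 0.30 and passed (limma, adjusted p = 0.0157). In that fit 20 of the 457 genes passed, against 10 in the fit of all groups. The filled Ct equals the mean of the other 3 DNBS_Nissle wells, which narrows the spread of that group. Groups did not overlap in 13.8% of the 457 genes of that comparison, and 2 of the 4 members tested, Il1b and Il1rl1, were among them. In DNBS_CEC and DNBS the differences from healthy mucosa were 0.53 ± 0.75 and 0.63 ± 0.75.

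The balance between members was also measured inside each sample, where the reference genes cancel. The difference Il1b minus Il1rn was −2.54, −1.43, −3.45 and −3.51 in DNBS_CEC and 0.87, −0.80, 1.01 and −1.10 in DNBS_Nissle. It was −1.59, 2.31, −2.05 and −1.72 in DNBS, against −5.36, −4.45, −4.04 and −2.30 in healthy mucosa. With both Il1b assays averaged, all DNBS_Nissle and DNBS samples exceeded all healthy ones, and all DNBS_CEC samples lay below all DNBS_Nissle ones. The mean difference between groups was 1.31 for DNBS_CEC, 4.03 for DNBS_Nissle and 3.28 for DNBS against healthy mucosa, and −2.73 for DNBS_CEC against DNBS_Nissle. A two-sided exact permutation test over the samples gave p = 0.171, 0.0286, 0.0286 and 0.0286 for these, with 0.0286 the smallest that 4 against 4 allows.

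Il1b minus Il18 differed by 1.36 for DNBS_CEC, 4.25 for DNBS_Nissle and 3.31 for DNBS against healthy mucosa and −2.90 for DNBS_CEC against DNBS_Nissle (exact permutation p = 0.114, 0.0286, 0.0286 and 0.0286). Il1b minus Il18 and Il1b minus Il1rn hold the same Il1b values, and Il18 and Il1rn differed little between groups. Both therefore largely repeat the Il1b differences given above and are no separate support. Without DNBS sample 3 the difference between DNBS and healthy mucosa was 1.89 for Il1b minus Il18 and 2.25 for Il1b minus Il1rn, and that between DNBS_CEC and DNBS was −0.54 and −0.95, against −1.96 and −1.97 with it. Il18 minus Il18bp, whose product binds interleukin 18 and keeps it from its receptor, averaged 3.66 ± 0.61 in DNBS_CEC, 3.82 ± 0.63 in DNBS_Nissle, 3.44 ± 0.37 in DNBS and 3.58 ± 0.62 in healthy mucosa (± SD, n = 4). Its differences lay between −0.17 and 0.38 in all 6 comparisons, and every pair of groups overlapped. Of the 18 tests of this family, 6 reached the smallest p, all of them of differences that hold Il1b. None passed after Benjamini-Hochberg adjustment, where the lowest adjusted p by exact permutation was 0.0857. With 4 against 4 samples, 6 tests at the smallest p could not pass among 18, so this failure says little about the differences.

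**Figure D4:**
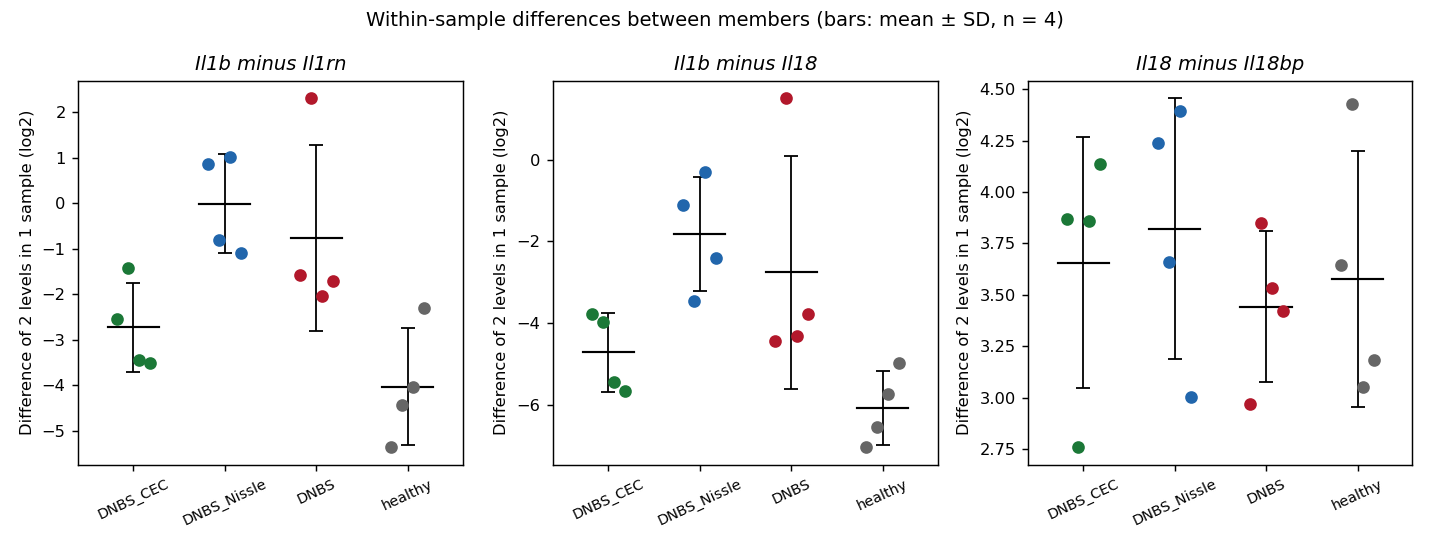
Difference of 2 levels within a sample (log2) for Il1b minus Il1rn, Il1b minus Il18 and Il18 minus Il18bp, with 1 point per sample and the mean ± SD of each group (n = 4). In the left and middle panels all DNBS_Nissle and DNBS points lie above the healthy ones, and in the right panel all groups overlap around 3.44 to 3.82.

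Across the 16 samples Il1a and Il1b moved together, with a Pearson r of 0.92, a Spearman rho of 0.86 and an r of 0.91 after group means were subtracted. Without DNBS sample 3 and DNBS_Nissle sample 5, the samples farthest from the Il1b median, r was 0.85, or 0.81 within groups. For Il1b and Il1f9 r was 0.84, 0.77 within groups and 0.71 without those samples, with 7 of the 16 Il1f9 values set to the limit. Il1b and Il1rn had an r of 0.64, 0.55 within groups and 0.47 without those samples. For Il1b and Il1rl1 these were 0.38, 0.04 and 0.31, and for Il1b and Il18 they were 0.25, 0.02 and 0.53. These are descriptions over samples that share reference genes, and they carry no test.

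The genes most like Il1b among 411 others detected in all 16 samples were S100a9 (r = 0.92) and S100a8 (0.90), the subunits of calprotectin, Csf2rb (0.88), the shared receptor chain for granulocyte-macrophage colony-stimulating factor, the chemokine Cxcl1 (0.86) and Ncf1 (0.86), a subunit of the phagocyte oxidase. The median r of all 411 with Il1b was 0.01. Il18 was most like Bre (0.84), Fas (0.83) and Ltbr (0.81), Il1rn most like Bmp8b (0.79), Itgb2 (0.78) and Myd88 (0.74), and Il1rl1 less closely like Pla2g2e (0.60) and Il18rap (0.57).

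Neutrophil markers moved with Il1b. Of 12 listed markers 7 were on the panel, and all 7 were detected in some sample. Their summed level (log2) ranged from −3.14 to 2.90 in DNBS_CEC, 2.18 to 3.62 in DNBS_Nissle and −0.51 to 5.66 in DNBS, against −4.19 to −2.55 in healthy mucosa. The sum correlated with Il1b at an r of 0.91 over 16 samples and 0.78 within groups. It adds levels across assays, so the most abundant ones weigh most. In DNBS sample 3 it was 5.66, where S100a8 was at 4.77 and S100a9 at 4.47. These 2 genes were also the most like Il1b, so the r of the sum is no separate support. In DNBS_Nissle against healthy mucosa 3 of the 5 markers tested rose, where 2.19% of all genes passed, by 7.81 for S100a8, 7.48 for S100a9 and 4.27 for Il8rb, the chemokine receptor now called Cxcr2, and over all DNBS groups 4 of 5, with Ltf added, where 1.99% of all genes passed. Without healthy sample 3 the S100a8 call in DNBS_Nissle was lost (7.39, limma adjusted p = 0.0509), and over all DNBS groups no gene passed. The S100a8 and S100a9 calls over all DNBS groups were also lost without healthy sample 5, and those of Il8rb and Ltf without healthy sample 4, 5 or 6. The summed level of 5 macrophage and monocyte markers of 11 listed ranged from −0.54 to 0.40, −0.62 to 0.68 and −0.21 to 1.09 in DNBS_CEC, DNBS_Nissle and DNBS, against −0.40 to 0.25 in healthy mucosa. Taken singly, 4 of the 5 were higher in DNBS than in healthy mucosa and 1 was lower, with differences of −0.20 to 2.07. In DNBS_CEC and in DNBS_Nissle 2 were higher and 3 lower, with differences of −0.85 to 1.03 and −0.29 to 1.13. None of them passed by limma. Itgam averaged −1.74 in DNBS and −3.81 in healthy mucosa. The part of cell numbers in the Il1b differences was not tested. The epithelial marker on the panel, Krt8, ranged from 0.71 to 4.72 over all samples and differed from healthy mucosa by 0.07 ± 0.66 in DNBS_CEC, −0.68 ± 0.66 in DNBS_Nissle and 0.16 ± 0.66 in DNBS. Selp, the endothelial marker that could be tested, rose in DNBS_Nissle by 3.26 ± 0.71 (limma, adjusted p = 0.0192), a call lost without DNBS_Nissle sample 1 or 4 or healthy sample 3 or 5. None of the 4 adipocyte markers tested there passed by limma. Their median difference was −1.67, beside −0.10 for all genes, with Retn at −2.49 ± 0.75 (adjusted p = 0.108) and Adipoq at −2.22 ± 0.84 (0.205), the last without overlap. Both T cell markers tested in DNBS_Nissle were lower than in healthy mucosa, Cd28 by 1.26 and Cd4 by 0.88. Neither overlapped, where 13.8% of genes did not, and neither passed by limma. The mast cell marker Kit differed by −0.87 and the 2 eosinophil markers tested by −1.07 and −0.20, and none passed. The part of these cells in the Il1b difference was not tested.

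**Figure D5:**
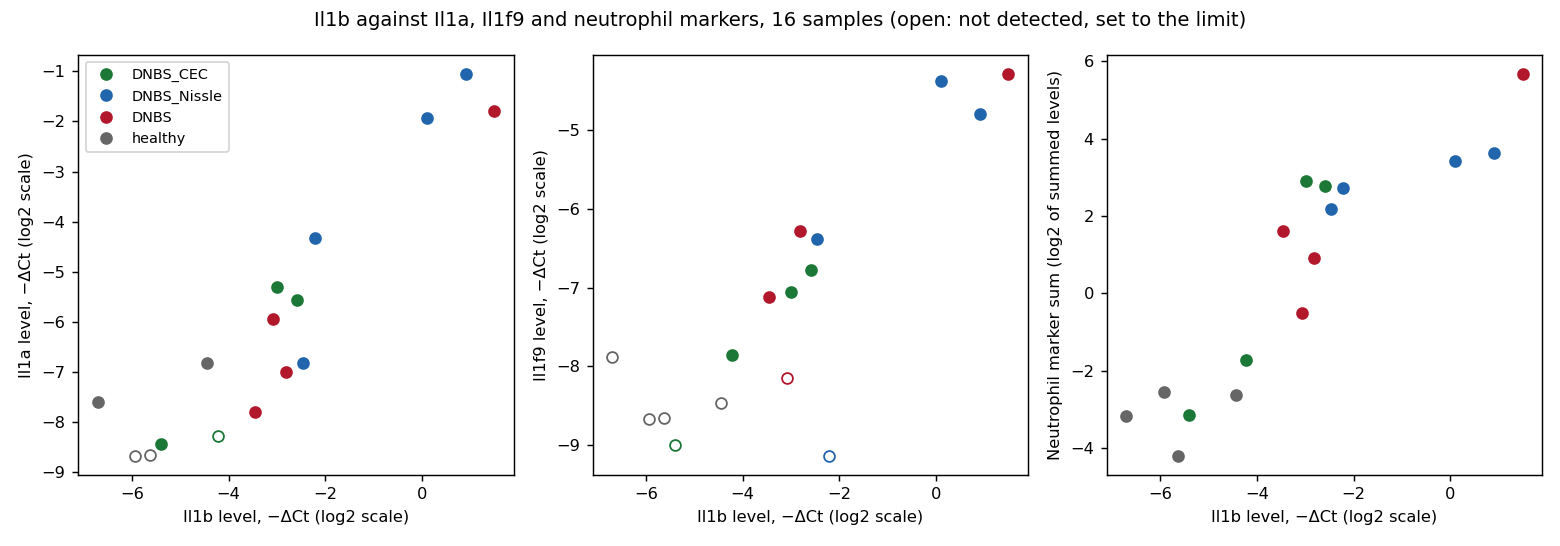
Level of Il1b (−ΔCt, log2 scale) against that of Il1a, that of Il1f9 and the log2 of the summed level of 7 neutrophil markers, with 1 point per sample (n = 16). Open points were not detected and set to the limit. DNBS sample 3 and DNBS_Nissle samples 1 and 5 lie at the upper right of each panel, with Pearson r of 0.92, 0.84 and 0.91.

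No receptor of the family passed the test. Of 12 listed receptors, decoys and related ligands, 7 were on the panel and 6 were tested in each of the 7 comparisons, with 0 passing by limma. Il1r1, the signalling receptor of both interleukin 1 forms, averaged −2.02 ± 0.35 in DNBS_CEC, −1.90 ± 0.49 in DNBS_Nissle and −1.98 ± 0.36 in DNBS, against −2.10 ± 0.13 in healthy mucosa (level ± SD, n = 4). Its partner Il1rap averaged −4.08 ± 0.41, −4.02 ± 0.50 and −4.10 ± 0.46 in those DNBS groups, against −3.99 ± 0.25 in healthy mucosa. For Il1r1 the 95% interval over all DNBS groups against healthy mucosa was −0.41 to 0.67, and for Il1rap it was −0.66 to 0.51 (difference in level, log2). Il1rl2, the receptor subunit for Il1f6 and Il1f9, differed by −0.24 ± 0.58 over all DNBS groups, and Il1rapl2 was not detected.

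Il33, the ligand of the Il1rl1 product, differed from healthy mucosa by 0.38 ± 0.39 in DNBS_CEC, 0.84 ± 0.39 in DNBS_Nissle and 1.12 ± 0.39 in DNBS (limma, adjusted p = 0.914, 0.298 and 0.325), with no overlap in DNBS_Nissle and DNBS. Il18rap, a subunit of the interleukin 18 receptor, differed by 0.51 ± 0.48, 1.31 ± 0.48 and 0.85 ± 0.48 in the same order (limma, adjusted p = 0.906, 0.193 and 0.605), with no overlap in DNBS_Nissle. Il18bp differed by 0.44 ± 0.54, 0.26 ± 0.54 and 0.53 ± 0.54 in that order. Groups did not overlap in 13.8% of all genes tested in DNBS_Nissle against healthy mucosa and in 8.53% in DNBS. The median difference of the 6 genes over all DNBS groups against healthy mucosa was 0.27, beside 0.01 for all 453 genes tested.

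Of 26 listed genes of signalling and processing, 14 were on the panel and tested, and none passed in any comparison. In DNBS_CEC against healthy mucosa 13 of 14 were higher, with a median of 0.25 beside 0.07 for all genes. For DNBS_Nissle this held for 8 of 14, with a median of 0.08 beside −0.10. In DNBS against healthy mucosa 12 of 14 were higher, with a median of 0.36 beside 0.12 for all genes. Those with the largest differences were Nlrp3, the inflammasome sensor (1.49 ± 0.97, adjusted p = 0.706), Irak3, an inhibitory kinase of the receptor complex (1.16 ± 0.72, 0.658), and the adaptor Myd88 (0.85 ± 0.37, 0.388), all by limma. In DNBS_Nissle the Nlrp3 difference from healthy mucosa was 3.06 ± 0.97 (limma, adjusted p = 0.129), with overlap. Casp1, which cuts both precursors, differed by −0.27 ± 0.34 in DNBS_CEC, −0.63 ± 0.34 in DNBS_Nissle and −0.30 ± 0.34 in DNBS.

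Of 19 listed genes known to be induced by interleukin 1, 16 were on the panel. Nos2, the inducible nitric oxide synthase, rose in DNBS by 3.83 ± 0.72 (limma, adjusted p = 0.0325) and in DNBS_Nissle by 3.13 ± 0.72 (0.0283). The call in DNBS was lost without DNBS sample 2 or 3 or healthy sample 3, 4 or 6 (adjusted p of 0.0583 to 0.153), and with global mean or quantile normalization. That in DNBS_Nissle was lost without DNBS_Nissle sample 1, 5 or 7 or healthy sample 3, 4 or 6 (0.051 to 0.122). The neutrophil chemokine Cxcl5 rose in DNBS_Nissle by 3.79 ± 0.71 (0.0101) and differed by 2.68 ± 0.71 in DNBS (0.0987) and 2.67 ± 0.71 in DNBS_CEC (0.357). Cxcl1 differed by 2.31 ± 0.91 in DNBS (0.332). In DNBS_Nissle 2 of 9 tested members of this list passed, both higher, beside 2.19% of all genes, and in DNBS_CEC 0 of 8 did, beside 0% of all genes. The list's median difference from healthy mucosa, over its tested genes only, was 1.01 in DNBS_CEC, 1.49 in DNBS_Nissle and 1.74 in DNBS, beside 0.07, −0.10 and 0.12 for all genes tested. In that order 8 of 8, 7 of 9 and 7 of 9 were higher. List genes seldom detected in healthy mucosa are outside these medians and counts. Il6 and Cxcl3 were detected in 4 of 4 samples of each DNBS group and 1 of 4 healthy ones, and Cxcl2 and Csf2 in 4 of 4 and 2 of 4. Il17a was detected in 1, 4 and 2 of 4 samples in the same order and 0 healthy ones. For Il22 these counts were 1, 2 and 3 and for Sele 2, 4 and 2, also with 0 healthy ones. Detection differences occurred in 2.34%, 3.88% and 2.53% of all genes. Of 7 genes listed as responding to interleukin 18 or IL-33, such as Ifng and Il13, only Areg and Ccl24 could be tested against healthy mucosa, and neither passed.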

How the data were processed

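RNA of 16 colonic mucosa samples was read on a TaqMan OpenArray card, per the labels' protocols. The unit of the values that the authors deposited is the raw Ct, an unnormalized PCR cycle number recorded here as other. Thresholding and quality filters are not given in the sources used here. In the table used here 532 values (5.52% of those under 40) had 4 or fewer decimals, and the digit pair 40 was missing from the decimals, which moves a Ct by less than 1 cycle. Its header line describes a truncated example.

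Levels were −ΔCt against 13 reference genes (19 assays). Where a gene had more than 1 assay, the assays with most detections were averaged. The 16 control genes were kept out of the tests. Genes with a Ct of 28 or less in 3 or 4 samples of each group compared were fitted with limma 3.58.1 in R 4.3.3, in 1 model of 16 samples with 12 residual degrees of freedom, and p-values were adjusted by Benjamini-Hochberg over all genes tested in a comparison at a threshold of 0.05. The fit over all DNBS groups took the mean of the 3 groups. Detection was compared by two-sided Fisher's exact tests and within-sample differences by exact permutation over samples. The fit was tested on simulated data. Tables and figures used Python 3.11.15, pandas 2.3.3 and matplotlib 3.10.9. Precision rests on the 4 samples per group, since a Ct gives no molecule count.

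The members and gene lists were chosen with earlier results of these data known. All members were described. Of listed genes, those named passed in some comparison, had 1 of the 3 largest differences of their list in DNBS against healthy mucosa, or were receptors. Cell markers, Casp1 and the list genes given by detection counts were named after their values were seen. Genes most like a member were the 5 with the highest r, of which the leading ones are given. Alternatives were other reference genes and scalings, detection limits and filters, filled and short values left out, other fits, a replicate block and samples left out.

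Same-numbered samples of DNBS, DNBS_Nissle and healthy mucosa deviated with correlations of −0.23 to 0.31 over 412 genes, so the numbers were not taken to pair the samples. Same-numbered DNBS_CEC samples were not checked in this way.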

Additional observations from a re-analysis of the deposited data

Results flagged for a closer look

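Some samples stood apart from the other 3 of their group by Dixon's test, which chance flags in about 1 in 20 groups. In Il1b, DNBS sample 3 was the highest of its group at 1.5. In Il18, DNBS_Nissle sample 7 was the lowest at −0.05, a value with 4 decimals. In Il1f10, DNBS_Nissle sample 5 was the highest at −3.73, as the only sample of that group to amplify. In Il1f5, healthy sample 3 was the highest at 2.16, the sample with 57 filled values. In Il1rl1, healthy sample 6 was the lowest at −5.70 in a group spanning 0.40. Il1f6, which lay outside every test, gave a Ct above 28 and under 40 in 10 DNBS-treated samples, of which 9 were measured and 1 was a filled value, and in 0 healthy ones.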

How the results depend on the processing

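All differences from healthy mucosa of Il1b, Il1rn and Il18 kept their sign under 18 other settings and with each of 16 samples left out in turn, where the sample belongs to the comparison. Among members, the Il1b calls were lost and an Il1rl1 call was gained under some settings, and the detection difference of Il1f9 from healthy mucosa ended in each DNBS group, at 2 samples more instead of 3, when any Ct under 40 counted. In DNBS_Nissle against healthy mucosa the Il1b difference was 5.65 with the replicate block (limma, adjusted p = 0.087) and 4.08 without healthy sample 3 and DNBS_Nissle sample 1 (0.227), and 4.15 to 5.27 with single samples left out, under which 0 to 1 member passed. With only the groups compared in the fit 2 members passed, the second being Il1rl1, among 20 genes of the 457 tested. Over all DNBS groups against healthy mucosa Il1b was at 3.35 without Ywhaz and Rplp2 in the reference, 3.32 with filled values left out, 3.42 with the first usable assay, 3.89 with the replicate block and 2.99 without healthy sample 3 and DNBS_Nissle sample 1, each with 0 members passing, and 3.06 to 3.86 with single samples left out, under which 0 to 1 passed. The causes were not tested. The replicate block takes a shared number as a pair, which the check among DNBS, DNBS_Nissle and healthy samples did not bear out. DNBS_CEC samples were not part of that check. The block changed no other member's call.

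Small differences among DNBS groups turned. In DNBS_CEC against DNBS, Il18 was at −0.034 without Ywhaz and Rplp2 and −0.009 with Gapdh alone, Il1rn at −0.022 without Ywhaz and Rplp2, and Il1a at 0.53 without DNBS sample 3 and DNBS_CEC sample 8, an alternative chosen after seeing the data. In the same comparison Il1rl1 was at 0.023 with the global mean, 0.28 with quantile normalization, 0.46 with the replicate block and 0.013 without that pair of samples. In DNBS_Nissle against DNBS, Il18 was at −0.16 without that pair, and Il1f9 at −0.16 without values of 4 or fewer decimals and −0.31 without healthy sample 3 and DNBS_Nissle sample 1. In DNBS_CEC against DNBS_Nissle, Il18 was at −0.24 without Ywhaz and Rplp2, −0.34 with Gapdh alone, −0.056 with all endogenous controls, −0.063 with the global mean, −0.20 with quantile normalization, −0.084 without short values, -5e-04 with the first usable assay and −0.43 with the replicate block. Il1rn was there at 0.15 without short values, 0.15 with the replicate block and 0.11 without the pair. With single samples left out, Il18 ran from −0.15 to 0.39 in DNBS_CEC against DNBS, −0.16 to 0.43 in DNBS_Nissle against DNBS and −0.31 to 0.23 in DNBS_CEC against DNBS_Nissle. Il1rn ran from −0.078 to 0.40 in DNBS_CEC against DNBS and, against DNBS_Nissle, from −0.37 to 0.11. Il1rl1 ran from −0.71 to 0.78 in DNBS_CEC against DNBS and −0.077 to 1.41 in DNBS_CEC against healthy mucosa, Il1a from −1.99 to 0.015 in DNBS_CEC against DNBS, and Il1f9 from −0.31 to 1.28 in DNBS_Nissle against DNBS. Il18 minus Il18bp ran from −0.31 to 0.15 in DNBS, −0.10 to 0.38 in DNBS_CEC against healthy mucosa and −0.44 to 0.13 in DNBS_CEC against DNBS_Nissle.

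The number of genes passing was 10 in DNBS_Nissle against healthy mucosa and lay between 0 and 20 under other settings, 9 and 0 to 12 over all DNBS groups, 1 and 0 to 7 in DNBS, and 0 and 0 to 5 in DNBS_CEC. It was 0 with 0 to 1 in DNBS_CEC against DNBS_Nissle. Other scalings put the median difference of all genes between −0.19 and 0.10 in DNBS against healthy mucosa, beside 0.12. The loss of digits, the filled values and the number of samples limit small differences.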
